A study of Rattus norvegicus with 4 samples.

Results

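Myelin lipid synthesis genes encode the enzymes that make the cholesterol, fatty acids and sphingolipids of the myelin sheath, with the regulators of their supply. The set was chosen by name and held 35 of the 23148 protein-coding rat genes considered. It comprised 14 sterol enzymes, 3 regulators, 9 fatty acid enzymes and 9 sphingolipid enzymes. A peak belonged to a gene where the deposited peak list gave that gene's symbol, that is, where its transcription start site (TSS) was the nearest to the peak. By symbol, 214 of 129550 peaks named a member. Scd stands in the list under its older symbol Scd1, and matching by gene identifier brought the total to 225 peaks. Counts below are by symbol, with the count including Scd beside them. Shares of all genes were matched by gene identifier, or by symbol where that failed. The counts with Scd are therefore the ones matched alike.

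The study profiled trimethylation of histone H3 at lysine 27 (H3K27me3), which the Polycomb repressive complex PRC2 deposits at silent genes. Sciatic nerves came from male Sprague Dawley rats at postnatal day 42. All nerves used here were from the sham side, with the skin opened and the nerve left intact, taken 1 day after the opposite nerve had been cut, so the animals of every library carried an injury elsewhere. Chromatin cut with micrococcal nuclease gave 2 libraries of the mark and 2 of input, and the deposited peak list combines those of the mark, leaving no value per replicate and no replicate error. The nerve was used whole, so its Schwann cells, fibroblasts, vessel cells and immune cells were mixed.

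Myelinating Schwann cells build a membrane unusually rich in cholesterol, galactosylceramide and its sulfated form, sulfatide. Cholesterol is made from acetyl-CoA through mevalonate and squalene, fatty acids are synthesised, elongated, desaturated and hydroxylated, and ceramide joins a sphingoid base with a fatty acid before a sugar is added. SREBP transcription factors switch on the sterol and fatty acid enzymes in many cell types when sterols are low, and the promoters of these enzymes commonly carry CCAAT boxes, the binding sequence of the factor NF-Y.

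The promoters that carried the mark are shown first, as the 300 bases from 250 before to 50 after the RefSeq TSS of the rat assembly GRCr8, 5′ to 3′ on the gene's strand. Capitals mark each CG dinucleotide, because unmethylated CpG-rich sequence is where Polycomb domains commonly lie. Fa2h was read from chr19:56273431-56273730 (minus strand), Ugt8 from chr2:217007118-217007417 (minus), Gal3st1 from chr14:83094135-83094434 (plus), Scd from chr1:253231682-253231981 (minus) and Fads1 from chr1:216252442-216252741 (plus).
Fa2h: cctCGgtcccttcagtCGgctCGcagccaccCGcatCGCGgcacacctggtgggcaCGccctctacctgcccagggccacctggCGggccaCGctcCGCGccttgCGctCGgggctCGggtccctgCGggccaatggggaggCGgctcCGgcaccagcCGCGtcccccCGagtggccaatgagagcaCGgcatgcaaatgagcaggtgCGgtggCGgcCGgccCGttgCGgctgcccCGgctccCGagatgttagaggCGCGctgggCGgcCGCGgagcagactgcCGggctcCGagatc
Ugt8: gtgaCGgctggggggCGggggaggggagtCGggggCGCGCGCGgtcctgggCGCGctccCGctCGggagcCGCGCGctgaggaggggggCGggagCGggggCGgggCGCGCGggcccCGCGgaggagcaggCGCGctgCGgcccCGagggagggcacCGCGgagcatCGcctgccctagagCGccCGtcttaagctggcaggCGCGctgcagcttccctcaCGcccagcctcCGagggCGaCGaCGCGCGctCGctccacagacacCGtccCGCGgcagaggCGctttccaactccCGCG
Gal3st1: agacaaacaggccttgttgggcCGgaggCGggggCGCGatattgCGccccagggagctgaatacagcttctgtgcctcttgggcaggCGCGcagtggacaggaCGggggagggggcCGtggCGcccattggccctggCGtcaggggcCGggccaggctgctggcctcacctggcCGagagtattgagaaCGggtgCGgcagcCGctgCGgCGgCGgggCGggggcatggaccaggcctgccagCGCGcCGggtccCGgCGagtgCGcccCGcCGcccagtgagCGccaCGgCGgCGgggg
Scd: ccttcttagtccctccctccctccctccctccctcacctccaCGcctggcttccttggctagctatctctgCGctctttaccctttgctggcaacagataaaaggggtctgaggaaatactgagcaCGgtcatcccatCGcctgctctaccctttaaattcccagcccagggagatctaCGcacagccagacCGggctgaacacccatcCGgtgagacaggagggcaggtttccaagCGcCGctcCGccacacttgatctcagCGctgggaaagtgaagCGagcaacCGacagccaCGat
Fads1: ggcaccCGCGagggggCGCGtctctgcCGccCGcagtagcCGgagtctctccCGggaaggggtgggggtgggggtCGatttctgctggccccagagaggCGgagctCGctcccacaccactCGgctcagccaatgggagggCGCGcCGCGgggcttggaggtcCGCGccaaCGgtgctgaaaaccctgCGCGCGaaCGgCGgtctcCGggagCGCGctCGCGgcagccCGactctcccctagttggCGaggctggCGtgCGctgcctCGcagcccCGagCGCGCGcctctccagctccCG

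The sphingolipid promoters were dense in CpG, with 35 CG dinucleotides at Fa2h, 47 at Ugt8 and 32 at Gal3st1. Fads1 had 39 and Scd only 14. The sterol promoters, none of which had a peak, are represented by Hmgcs1 (chr2:53382054-53382353, plus), Fdps (chr2:176804767-176805066, minus) and Mvk (chr12:47819454-47819753, minus). They are shown because CCAAT boxes were frequent in this class (9 of 11 promoters), and capitals mark CCAAT or its reverse complement ATTGG.
Hmgcs1: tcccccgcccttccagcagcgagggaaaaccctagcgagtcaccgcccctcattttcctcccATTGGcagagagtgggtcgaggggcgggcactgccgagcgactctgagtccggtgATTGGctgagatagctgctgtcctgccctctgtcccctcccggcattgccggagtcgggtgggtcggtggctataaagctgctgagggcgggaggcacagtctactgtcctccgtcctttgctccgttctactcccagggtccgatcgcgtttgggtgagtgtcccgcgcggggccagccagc
Fdps: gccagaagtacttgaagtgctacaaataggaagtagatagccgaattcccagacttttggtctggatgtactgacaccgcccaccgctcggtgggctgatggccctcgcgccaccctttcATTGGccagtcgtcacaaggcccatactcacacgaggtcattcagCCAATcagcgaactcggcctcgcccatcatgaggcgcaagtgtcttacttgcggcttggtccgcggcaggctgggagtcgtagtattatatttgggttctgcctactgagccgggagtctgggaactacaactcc
Mvk: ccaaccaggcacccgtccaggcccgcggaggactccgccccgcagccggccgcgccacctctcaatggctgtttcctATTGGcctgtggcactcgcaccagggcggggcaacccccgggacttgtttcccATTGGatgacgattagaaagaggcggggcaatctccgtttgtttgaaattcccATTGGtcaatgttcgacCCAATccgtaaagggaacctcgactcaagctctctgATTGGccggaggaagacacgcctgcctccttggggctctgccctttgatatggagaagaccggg

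Mvk held 5 such boxes within 300 bases, and Hmgcs1 and Fdps held 2 each.

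Most of these genes were named by a peak, and their share with a peak at the promoter was near that of all genes. Of the 35 members, 23 were named by a peak (65.7%, 95% Wilson interval 49.2 to 79.2%; 24 with Scd), against 44.5% of all genes, a share that counts genes absent from the rn5 annotation as unnamed. A promoter peak, meaning a peak that reached within 1000 bp of the TSS, was present at 5 members (14.3%, 6.26 to 29.4%; 6 with Scd, 17.1%, 8.1 to 32.7%), against 17.2% of all genes. Both intervals include the share of all genes and are wide. Among genes named by a peak alone, a promoter peak was present at 5 of 23 members (21.7%, 9.66 to 41.9%; 6 of 24 with Scd, 25%, 12 to 44.9%), against 38.6% of 10295 genes, which also lies within the intervals. No difference of the whole set from other genes was thus shown at the promoter. By symbol the members' share was the lower on both bases, but with Scd the share over all genes was 17.1% against 17.2%. No member had a peak over its TSS by symbol, and Scd made 1 by identifier, against 6.16% of all genes. High-scoring promoter peaks, with a score of at least 9.9 (the top 25% of the list), were present at 4 members (11.4%; 5 with Scd, 14.3%), against 12.6% of all genes. The score is the authors' value per peak, with no stated scale.

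By class, the promoter peaks fell on sphingolipid and fatty acid enzymes. No sterol enzyme had a promoter peak (0 of 14, Wilson upper bound 21.5%), nor did the regulators (0 of 3, upper bound 56.1%), while 3 of 9 sphingolipid enzymes had one (33.3%, 12.1 to 64.6%) and 2 of 9 fatty acid enzymes (3 with Scd). The intervals of these small classes overlap. With 14 genes, the background share of 17.2% lies within the sterol interval. In bulk nerve, a mark on fewer cells and a weaker mark per cell cannot be told apart, and the list does not say which cells carried any peak.

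**Figure D1:**
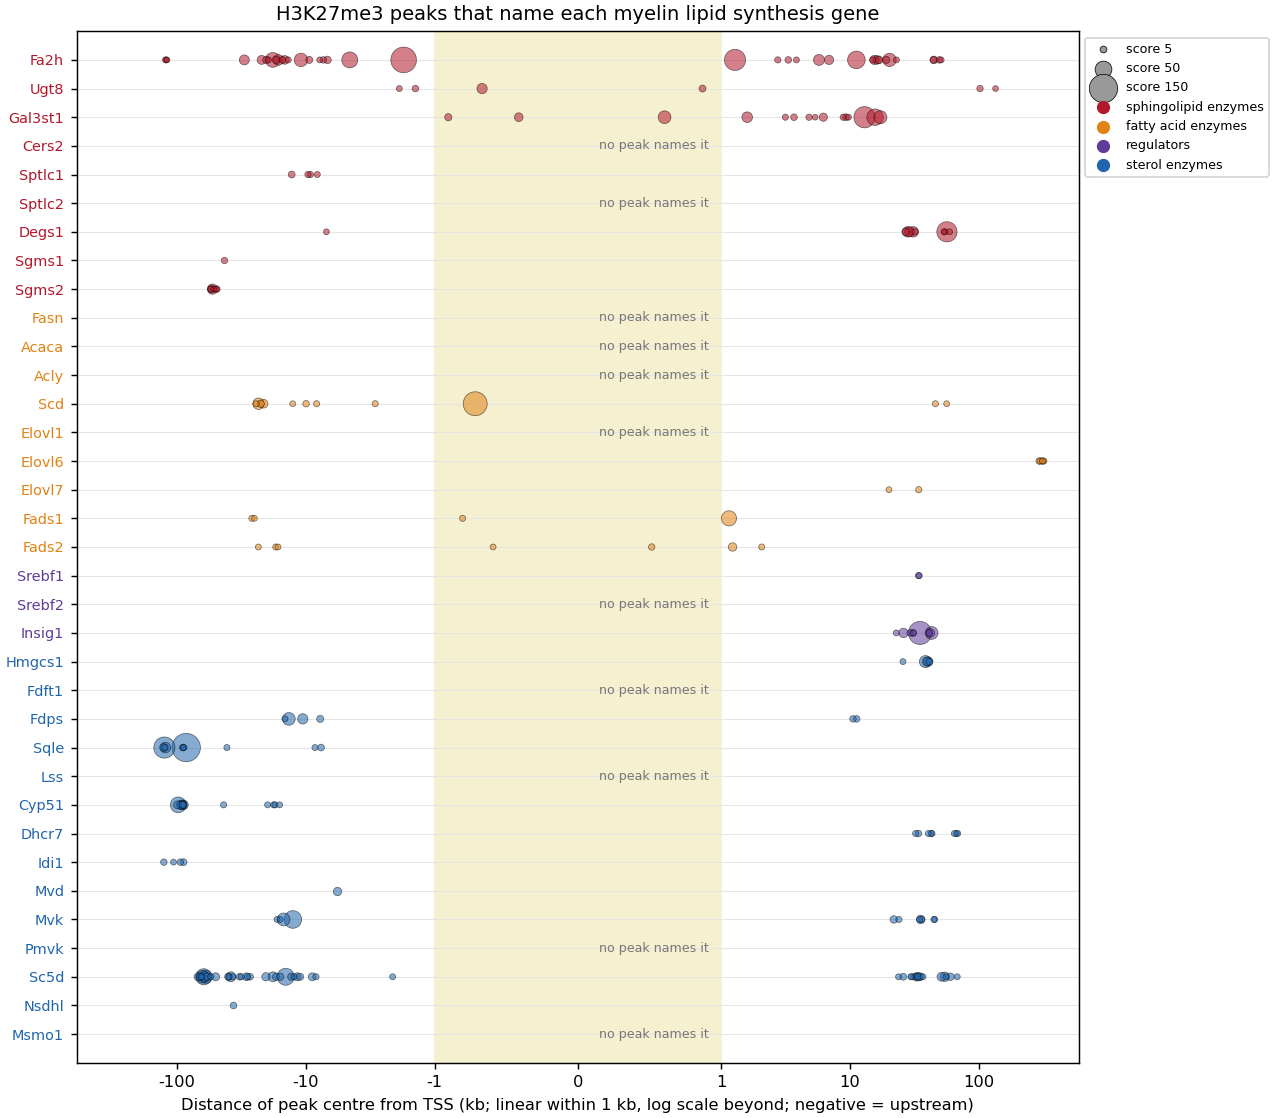
Peaks that name each of the 35 members, by signed distance of the peak centre from the TSS (kb, linear within 1 kb and log beyond, negative upstream). Circle area rises linearly with the score from a minimum size, and colours mark the 4 classes. Only sphingolipid and fatty acid enzymes have peak centres within 1 kb (shaded), and 11 members have no peak.

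Fa2h, which hydroxylates the fatty acids of myelin galactolipids, carried the strongest promoter mark of the set. Its upstream peak (chr19:54407249-54410429 in rn5, 3180 bp, intergenic) was centred 1742 bp upstream and scored 122.7 (95% counting interval 113 to 133, taking each score step as a sequenced tag). A further peak in intron 1 (chr19:54404741-54406884, 2143 bp), centred 1285 bp downstream, scored 81.9 (74 to 90.4). Fa2h was named by 38 peaks in all, of which 15 were high-scoring, and 18 were centred in its introns or 3′ UTR. Peaks covered 21173 bp of the 100 kb around its TSS, against a median of 4228 bp over the 8935 named genes with a TSS that could be placed. Fa2h thus lay in a spread of many short peaks, none of them as wide as 5000 bp.

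Gal3st1, the sulfotransferase that turns galactosylceramide into sulfatide, had 3 promoter peaks. The highest lay in intron 1 (chr14:84915543-84916397, 854 bp), centred 606 bp downstream, and scored 27.2 (22.8 to 32.3). The nearest, 413 bp upstream (chr14:84914779-84915123, 344 bp), scored 10.7 (8.01 to 14.1), and the smallest, 905 bp upstream, had 150 bp and a score of 6.19. A higher peak lay at the other end of the gene, in exon 4 (chr14:84926732-84930014, 3282 bp, score 82.7, 74.8 to 91.2). Of the 15 peaks that named Gal3st1, 11 were centred in its introns or exon 4, and the 15 together covered 9309 bp. Peaks of any gene covered 21515 bp within 50 kb of its TSS on either side, the most of any member.

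Ugt8, the transferase that makes galactosylceramide, had a weaker mark. Its main promoter peak (chr2:249073142-249073678, 536 bp), centred 669 bp upstream, scored 16.5 (13.1 to 20.5), and a 230 bp peak in intron 1 (chr2:249071755-249071985), centred 871 bp downstream, scored 5.36 (3.5 to 7.86). Peaks covered 1105 bp within 50 kb of its TSS, near the member median of 1216 bp. The enzymes of hydroxylation, galactosylation and sulfation, which act in the galactolipid branch, were the sphingolipid members with a promoter peak.

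Among the members, the enzymes of the ceramide core and of sphingomyelin had no promoter peak. Outside the set, 4 of 33 other sphingolipid genes had one, among them Sptssb and the Degs1 paralog Degs2. Degs1, the dihydroceramide desaturase, had its nearest peak 6928 bp upstream with a score of 2.89, and its highest (74.9, chr13:105548173-105551486) 56743 bp downstream. Sptlc1, a subunit of the serine palmitoyltransferase that starts the pathway, had 4 peaks, of which the nearest was centred 8157 bp upstream with a score of 3.3 and the highest scored 5.16. The sphingomyelin synthase Sgms1 was named by 1 peak, 43575 bp upstream with a score of 4.13, and Sgms2 by 6, the nearest 49135 bp upstream with 4.54. Cers2, the ceramide synthase for very long chains, and Sptlc2, the partner of Sptlc1, were named by no peak.

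Among the fatty acid enzymes, Scd was the member with a peak across its TSS. Scd, the desaturase that makes oleate-type fatty acids, lay under a peak of 3038 bp (chr1:271614846-271617884) centred 717 bp upstream with a score of 106 (97.1 to 116). Of the desaturases of polyunsaturated fatty acids, Fads1 had a peak of 1553 bp in intron 1 (chr1:233179175-233180728, centred 1154 bp downstream) with a score of 40.4 (35 to 46.5), and a 150 bp peak 805 bp upstream with 3.3 (1.89 to 5.36). Its neighbour Fads2 had only 150 bp promoter peaks, of score 4.13 (2.52 to 6.37) at 516 bp downstream and 2.89 (1.58 to 4.85) at 592 bp upstream. A Fads2 peak of score 9.9 centred 1230 bp downstream ended just outside the 1000 bp reach. The list annotated 3 more peaks, of up to 90.1, to Fads2 introns, but they named Incenp and did not count for Fads2. All 7 peaks within 50 kb of the Fads2 TSS were its own, so these 3 lay farther away. Whether they lie in the gene was not tested.

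Among the members, the enzymes that build and elongate saturated chains had no promoter peak. Outside the set, the elongase genes Elovl2, Elovl3 and Elovl4 had one and Elovl5 had none. Elovl6 and Elovl7, elongases, were named by distant peaks of low score, Elovl6 by 5 peaks of which the nearest was 295141 bp from its TSS (4.54) and Elovl7 by 2, the nearest at 20139 bp (2.89). Fasn, the fatty acid synthase, Acaca, which makes malonyl-CoA, Acly, which supplies acetyl-CoA from citrate, and Elovl1, an elongase of very long chains, were named by none.

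**Figure D2:**
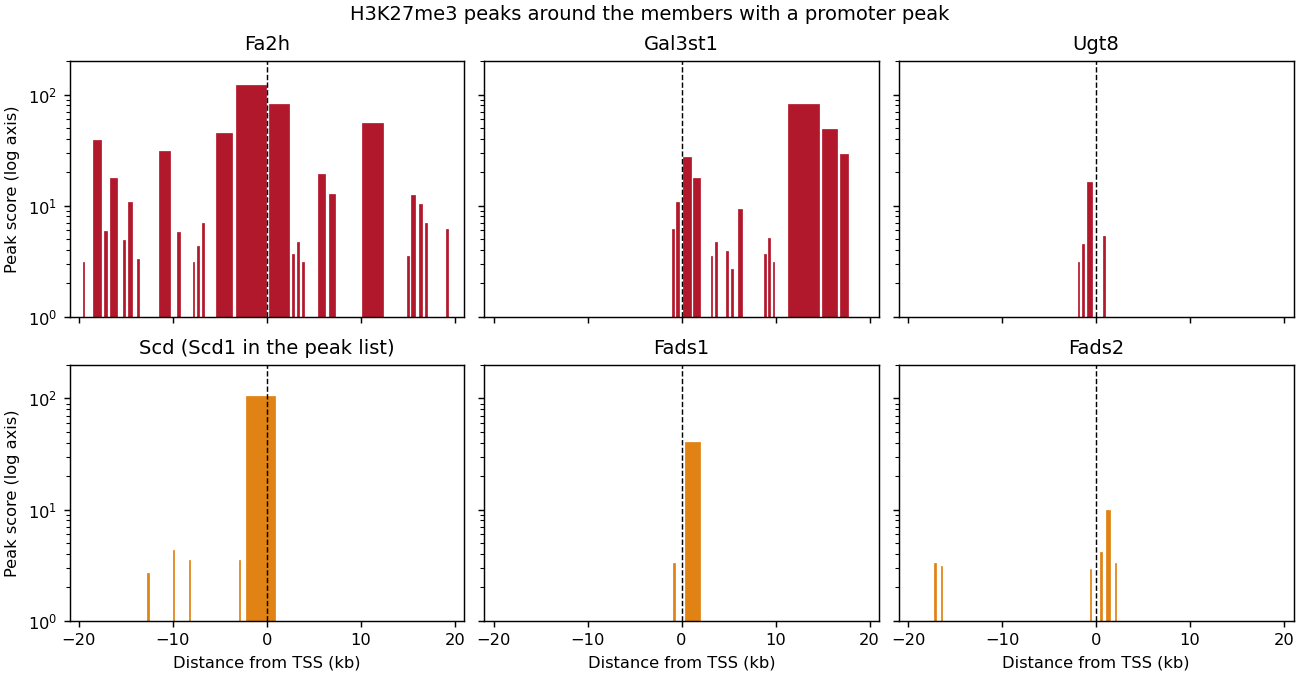
Peaks that name each of the 6 members with a promoter peak and are centred within 20 kb of its TSS, drawn to scale along the distance from the TSS (kb) with bar height giving the peak score on a log axis. Scd has a peak across the TSS, and the other 5 have peaks on both sides of it and none over it.

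The TSS itself was free of peaks at 5 of the 6 members with a promoter peak. At these 5, promoter peaks lay on both sides, and the gap between their edges was 365 bp at Fa2h, 420 bp at Gal3st1, 958 bp at Fads2, 1107 bp at Fads1 and 1157 bp at Ugt8. Among all 3978 genes with a promoter peak, 1162 (29.2%) had this arrangement, with a median gap of 665 bp, and 35.8% had a peak over the TSS. The count of 6 members is small, and how peak calling places edges near a TSS was not tested.

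Promoter scores of the members were not high for the list. The highest promoter score had a median of 33.8 over the 6 members, with quartiles of 19.2 and 89.6, against 40.9 over all 3978 genes with a promoter peak, with quartiles of 8.87 and 124. Fa2h stood above 74.6% of those genes, Scd above 71.4%, Fads1 above 49.5%, Gal3st1 above 41.6%, Ugt8 above 34.2% and Fads2 above 11.8%. The highest-scoring promoter peak of each gene had a median width of 1203 bp (150 to 3180 bp) over the members, against 1347 bp (150 to 47839 bp) over all such genes. None of the 225 member peaks was 5000 bp or wider, a size reached by 1313 peaks of the list.

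**Figure D3:**
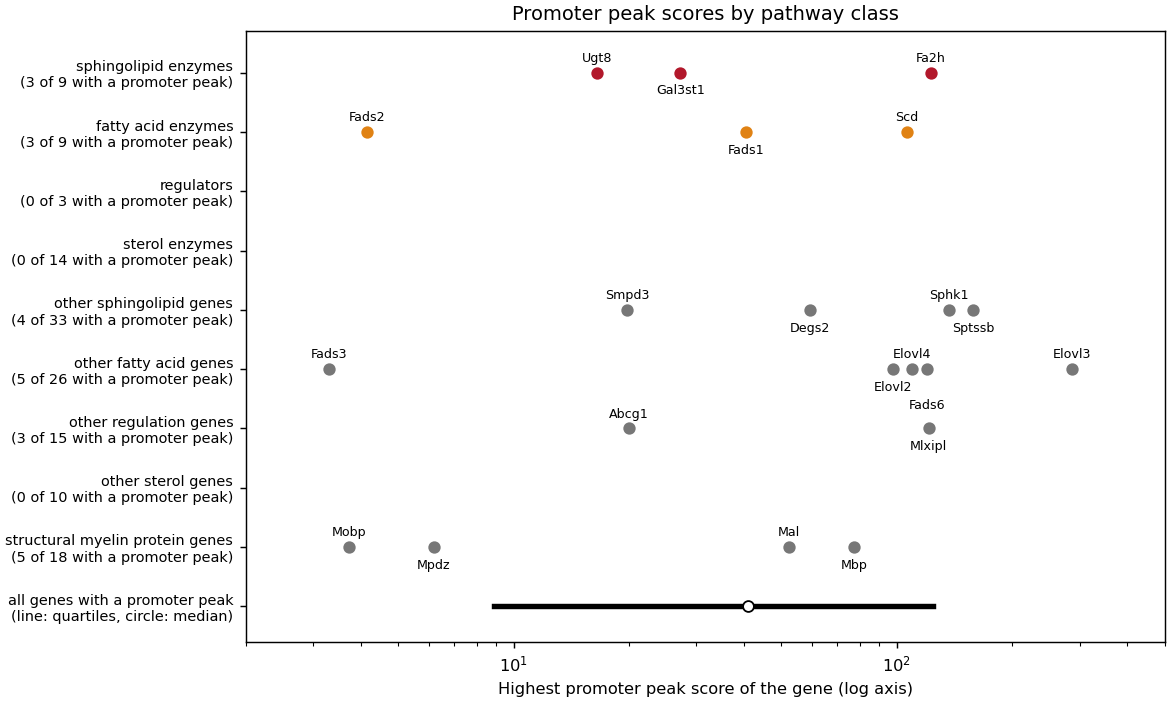
Highest promoter peak score (log axis) of the genes plotted by name (the counts beside each row cover the whole list), with the members by class on top, then other genes of the same pathways and structural myelin protein genes, and at the bottom the median and quartiles of all 3978 genes. Fa2h and Scd lie above the median of 40.9, Fads1 just below it, and the sterol rows are empty.

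Sterol enzymes had peaks, but away from their promoters. Of the 14, 10 were named by a peak (71.4%, 45.4 to 88.3%), against 44.5% of all genes. Of the 105 peaks that named them 96.2% were intergenic and 1 (0.952%) was intronic, against 74.7% and 21.8% of all 129550 peaks. Sc5d alone was named by 46 of the 105, so these shares weigh that locus most. The median distance from the TSS to the centre of the nearest peak was 14304 bp over these 10 (2121 to 88957 bp), against 2857 bp over all 10295 named genes. Over the 7 named sphingolipid enzymes it was 6928 bp, over the 4 named fatty acid enzymes 10472 bp (805 bp with Scd, n = 5) and over all 23 named members 12620 bp.

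Along the pathway, the upstream enzymes came out as follows. Hmgcs1, which makes HMG-CoA, had 5 peaks, the nearest 25856 bp downstream with a score of 3.09 and the highest 24.3 at 38617 bp. Mvk, the mevalonate kinase, had 11, and its nearest was also its highest, 12620 bp upstream with a score of 55.9 (49.4 to 63, chr12:49722807-49725319). Mvd, which yields isopentenyl diphosphate, was named by 1 peak of 441 bp, 5714 bp upstream with a score of 9.9. Its isomerase Idi1 had 4, the nearest 88957 bp upstream with 5.16, and no base within 50 kb of its TSS lay under a peak. Pmvk, the kinase between Mvk and Mvd, was named by none. The mevalonate steps thus ranged from the Mvk peak of 55.9 to no named peak at Pmvk.

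Fdps, which makes farnesyl diphosphate, had 6 peaks, the nearest 7741 bp upstream with a score of 5.78 and the highest 27.6 at 13562 bp upstream. Another, of score 4.33 at 10589 bp downstream, was annotated at the end of the Fdps transcript. No sterol enzyme had a peak annotated to its exons or introns, a count that leaves out peaks annotated at transcript ends. Fdft1 and Lss, the squalene and lanosterol synthases, were named by none. Sqle, the epoxidase between them, had its nearest peak 7625 bp upstream with a score of 4.95 and the highest-scoring peak of any member, 150.6 (140 to 162), 84878 bp upstream (chr7:100110803-100113629). The next TSS that could be placed from the list, that of Trib1, was 422175 bp away, and genes that no peak names could lie nearer. The highest score of Sqle therefore describes a distant intergenic site and not its promoter.

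Of the enzymes that turn lanosterol into cholesterol, Cyp51, the demethylase, had 12 peaks, the nearest 15989 bp upstream with 3.09 and the highest 44.1 at 97886 bp upstream. Sc5d, a desaturase near the end, was named by 46, the most of any member. Its nearest, 2121 bp upstream, scored 3.09 and its highest, 14338 bp upstream, scored 51.8 (45.6 to 58.6). Dhcr7, the reductase of the last step, had 8, none high-scoring, the nearest 32433 bp downstream with 3.51. Nsdhl, which helps remove methyl groups, was named by 1, 36655 bp upstream with 4.74, on chromosome 1 of rn5 although the newer assembly places the gene on X. Msmo1, which acts with Nsdhl, was named by none. Peaks within 10 kb were thus limited to Fdps, Sqle, Mvd and Sc5d, with scores of at most 9.9.

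The regulators also had peaks only at a distance or none. Srebf1, the SREBP gene tied to fatty acid synthesis, had 2 peaks, the nearest 34152 bp downstream with a score of 3.71. Insig1, which holds SREBPs in the endoplasmic reticulum, had 9, the nearest 22950 bp downstream with 3.09 and the highest 98.8 (90.2 to 108, chr4:370654-374222) at 35049 bp downstream. The next TSS placed from the list, that of En2, was 61043 bp away, with the same limit. Srebf2, the SREBP gene tied to sterol synthesis, was named by none.

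**Figure D4:**
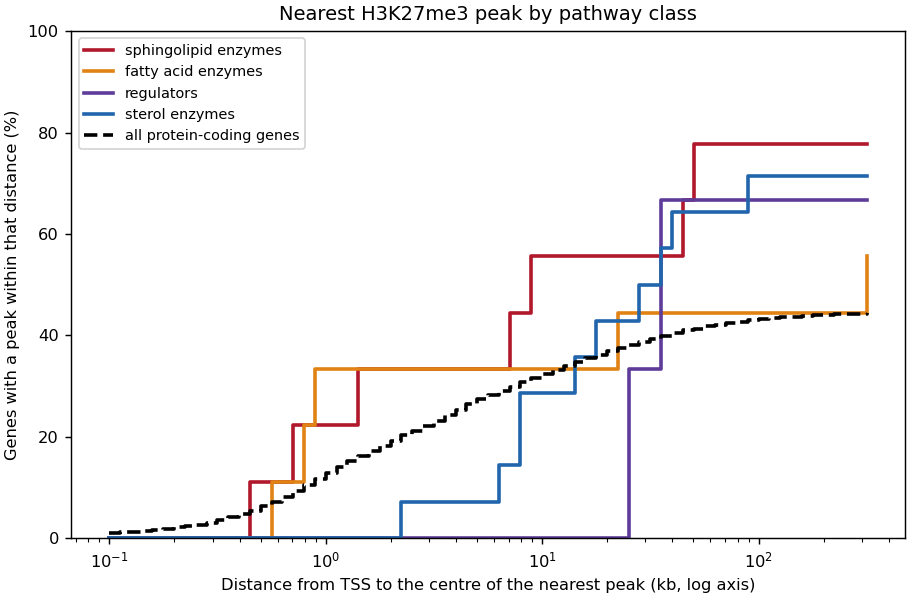
Cumulative share of genes (percent) against the distance from the TSS to the centre of the nearest peak that names the gene (kb, log axis), for each member class by gene identifier and for all protein-coding genes. The sterol line stays at 0 within 1 kb and ends at 71.4%, while the line of all genes rises steadily and approaches 44.5%.

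In wider windows the comparison with other genes depended on the base. A peak centred within 10 kb was present at 11 members (31.4%, 18.6 to 48%; 12 with Scd, 34.3%, 20.8 to 50.8%), against 32.4% of all genes. By symbol these were 5 of 9 sphingolipid, 2 of 9 fatty acid and 4 of 14 sterol enzymes and 0 of 3 regulators. Among genes named by a peak, the share within 10 kb was 47.8% of 23 members (29.2 to 67%; 50% of 24 with Scd, 31.4 to 68.6%), against 72.8% of all named genes, a share above the members' intervals. Within 50 kb the members' count was 21 (60%, 43.6 to 74.4%; 22 with Scd), against 41.3% of all genes, and among named genes alone 91.3% (73.2 to 97.6%), against 92.9%. A high-scoring peak within 50 kb was present at 12 members (34.3%, 20.8 to 50.8%; 13 with Scd), against 27.3% of all genes, and among named genes alone 52.2% (33 to 70.8%), against 61.4%. The median of bases under any peak within 50 kb was lower over the members with a placed TSS (1216 bp, n = 20) than over all such genes (4228 bp).

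For the 11 members that no peak named, the list cannot separate absence of the mark from a nearer neighbour, so the rn5 interval between the flanking genes that the list does name was examined, a check added after the values were seen. None of the 11 intervals was empty of peaks. At Fdft1, between Ctsb and Neil2, 1 peak of score 2.89 covered 0.23% of 65226 bp. At Lss 1 peak of 5.78 covered 0.0624%, at Cers2 the highest of 3 peaks scored 7.63, and these 3 intervals held no high-scoring peak. The others held stronger peaks that named neighbours. At Srebf2 the highest scored 155.9 and named Shisa8, at Pmvk 81.9 naming Kcnn3, at Fasn 76.1 naming Slc16a3, and at Acly 64.6. Sptlc2 (42.5), Msmo1 (37.7), Elovl1 (33.2) and Acaca (17.7) followed. No peak was centred in the exons or introns of any of these 11 genes.

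Other genes of the same pathways were counted in the same way. Of 84 such genes, 12 had a promoter peak (14.3%, 8.37 to 23.3%), against 17.2% of all genes, which lies within the interval. None of 10 other sterol genes did (upper bound 27.8%). Of 15 other regulation genes 3 had one, among them Mlxipl (121.1), a transcription factor that responds to carbohydrate, and the sterol exporter Abcg1 (20). Of 26 other fatty acid genes 5 did, with Elovl3 (286.3), Fads6 (119.6) and Elovl4 (109.5) highest. Of 33 other sphingolipid genes 4 did, with Sptssb (158.2), Sphk1 (136.8) and Degs2 (59.4) highest. Degs2 and Degs1 are paralogs, and the promoter peak lay at Degs2.

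The myelin proteins that share the sheath with these lipids served as a comparison. Of 18 structural myelin protein genes 5 had a promoter peak (27.8%, 12.5 to 50.9%), among them Mbp (77.4), Mal (52.4), Mpdz (6.19) and Mobp (3.71). The share of all genes, 17.2%, lies within that interval. Pmp22, Mag, Cnp, Pmp2, Prx, Mog, Gjb1, Cldn19, Cldn11, Epb41l2, Ncmap and Drp2 were among those without. The nearest peak of the 11 named genes had a median distance of 1377 bp, against 2857 bp over all named genes. Of the lipid enzymes, Fa2h and Scd scored above Mbp, and Fads1, Gal3st1, Ugt8 and Fads2 below Mal.

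The tissue holds several cell types, and each short list of their markers held genes with and without a promoter peak. Of 5 Schwann cell markers 2 had one, among them Sox10 (4.13, of the smallest width), and S100b and Pmp22 had none. Sox10 also had a peak of score 25.2 centred 1715 bp downstream, outside the 1000 bp reach. Of 4 fibroblast and perineurial markers Pdgfra (561.3) and Cldn1 (55.1) had one, and Col1a2 and Col3a1 had none. Of 3 endothelial markers Kdr (65.6) had one, and Pecam1 and Cdh5 had none, and of 3 macrophage markers Cx3cr1 (11.1) had one, and Csf1r and Ptprc had none. Of 4 adipocyte markers Pparg (130.6), Plin1 (14) and Adipoq (5.78) had one, and Cidec had none. Lists of 3 to 5 genes do not separate the cell types. The part of these cell types in the members' peaks was not tested.

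Promoter sequence was available for 29 of the 35 members from RefSeq, and Sqle, Fdft1, Pmvk, Fasn, Acaca and Elovl6 were not matched. The ratio of observed to expected CpG had a median of 0.77 over the 29, against 0.55 over 18999 genes (quartiles 0.23 and 0.82). By class it was 0.84 for sphingolipid (n = 9), 0.57 for fatty acid (n = 6) and 0.74 for sterol enzymes (n = 11), and 0.9 for the regulators (n = 3). Members with a promoter peak had a median of 0.82 (n = 6), from 0.58 at Scd to 1.01 at Ugt8, against 0.74 without (n = 23). Several CpG-dense members had no promoter peak, among them Sc5d (1.04), Msmo1 (1.03), Insig1 (1.0) and Degs1 (0.98). CpG content alone did not separate members with a promoter peak from those without.

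**Figure D5:**
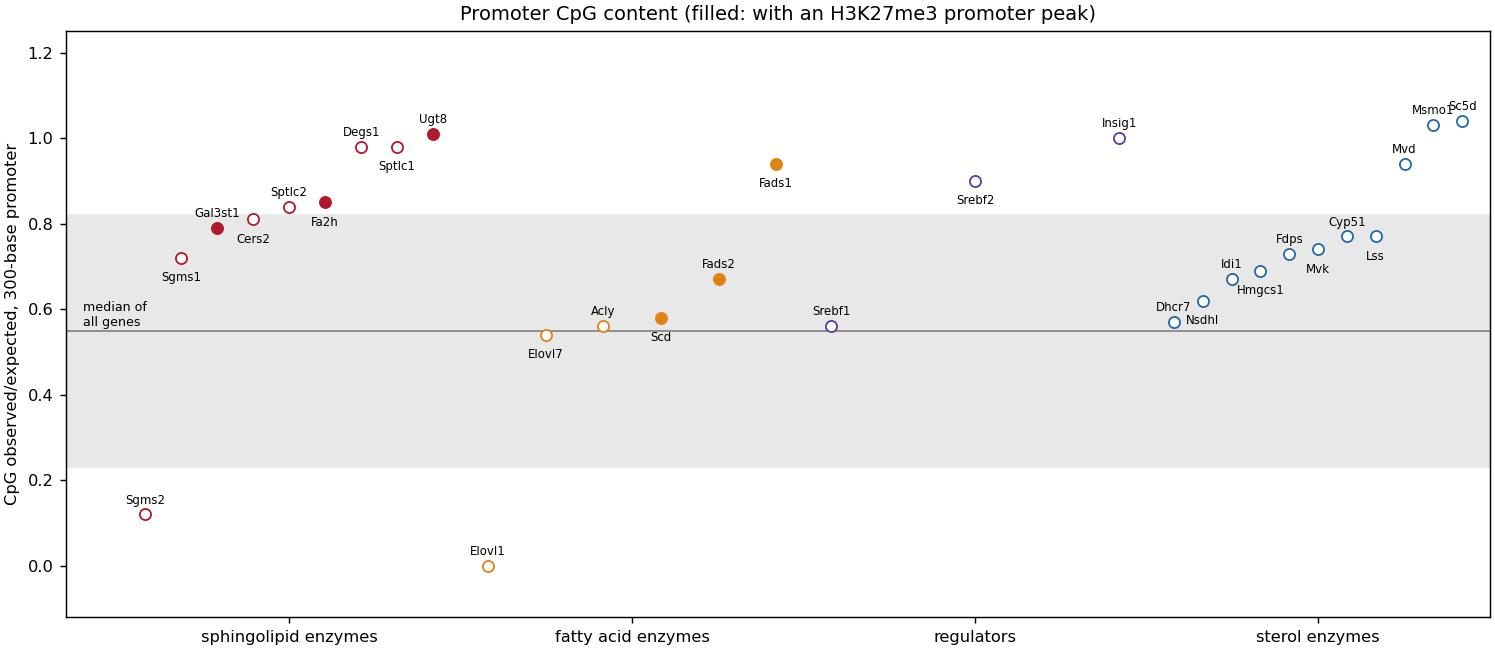
Ratio of observed to expected CpG in the 300-base GRCr8 promoter of 29 members by class, with filled circles for members with an H3K27me3 promoter peak, a line at the median of all genes and a grey band for its quartiles. Filled circles run from 0.58 to 1.01, and open circles cover the same range.

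CCAAT, searched on both strands, occurred in 18 of the 29 promoters (62.1%), against 38.4% of all 18999 promoters of the same length. It occurred in 4 of 9 sphingolipid, 2 of 6 fatty acid, 3 of 3 regulator and 9 of 11 sterol promoters (81.8%), of which Hmgcs1, Fdps and Mvk are printed above. The E-box CACGTG, on both strands, occurred in 2 of 29 (6.9%, Sc5d and Insig1), against 7.26% of all promoters. The sterol-element pattern TCACNCCAC, on both strands, occurred in none of the 29, against 1.06% of all. A match is a description of the letters and not of binding.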

How the data were processed

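Per the labels, sciatic nerve chromatin was cut with micrococcal nuclease, immunoprecipitated for H3K27me3 and sequenced with its input. The submitters' processing notes name CASAVA 1.8.2, Bowtie and HOMER. Per the file headers, 1 combined peak list was annotated by HOMER on rn5. Calling settings, input use and the pooling of libraries, not given in the sources used here, could move peak edges and scores. The authors deposited a score, a width and a signed distance to the nearest TSS per peak. Scores under 10 were whole multiples of 0.2063 within 0.005, and counting intervals take each step as 1 tag, an assumption, so they cover nothing but counting error. Library depths are unknown.

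Members were matched by symbol, then by gene identifier, to 23148 protein-coding genes of a GRCr8 table, used for names and neighbours. All genes were matched by gene identifier, then by symbol. A promoter peak had a centre no farther from the TSS than 1000 bp plus its width divided by 2. A TSS was worked out from centre and signed distance. Shares have 95% Wilson intervals, which treat genes as independent. With 1 pooled list there are no values per sample and no test was run. Alternatives changed the reach, the score or width minimum, the window and the match. All 35 members, the genes with the 3 highest promoter scores of each other class and the structural myelin genes were to be named, besides a few other pathway genes picked after their values were seen. Some genes of these lists are counted but not reported here by name. Members and lists were chosen with earlier results of these data known. Scripts used Python 3.11.15, pandas 2.3.3, numpy 2.4.6, scipy 1.17.1 and matplotlib 3.10.9. Only the working out of TSS positions and the promoter rule were tried on simulated data.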

Additional observations from a re-analysis of the deposited data

How the results depend on the processing

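Of 94 values recomputed, 65 stayed within 1.5 times or the counting interval of the reported value and 29 moved. No paired analysis was possible because the peak list pools the replicates, and for the same reason no library could be left out. With a reach of 10000 bp, 11 members had a promoter peak (32.5% of all genes did), 5 of them sphingolipid and 4 sterol enzymes; with 5000 bp 1 sterol enzyme did. Peaks of at least 500 bp named 13 members, of which 6 were sterol enzymes, 1 a regulator and 1 a fatty acid enzyme, and left 1 fatty acid enzyme with a promoter peak. Scores at or above the median likewise left 1 named regulator and 1 fatty acid enzyme with a promoter peak. With gene identifiers, chosen after seeing the data, 2 fatty acid enzymes had a high-scoring promoter peak. The nearest distance was 23354 bp (scores at or above the median) and 26477 bp (500 bp) for sterol enzymes, 1230 and 1154 bp for fatty acid enzymes, and 1285 bp (500 bp) for sphingolipid enzymes. The median highest score of fatty acid enzymes was 9.9 within 50 kb. Bases under peaks in windows of 20 and 100 kb were 480 and 6179 over all members, 480 and 9119 for sterol enzymes, 0 and 22668 for regulators and 898 and 12289 for sphingolipid enzymes; fatty acid enzymes had 1890 within 100 kb. With scores at or above the median the bases were 691 over all members and 214 for fatty acid enzymes. A class of 3 to 14 genes, an unknown depth and a single pooled list limit every comparison.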

Other observations

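Related genes outside the set of members gave these values. Insig2, the paralog of Insig1, was named by 40 peaks, of which the highest scored 381.4 and lay 136350 bp downstream of its TSS, and its nearest scored 2.89 at 22134 bp upstream. Galc, the lysosomal enzyme that degrades galactosylceramide, had its nearest peak 2331 bp upstream with a score of 15.7. Scd2, a paralog of Scd on the same chromosome, had 10 peaks, none high-scoring, the nearest 3518 bp upstream with 3.3. These genes were picked after their values were seen.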
